A study of Mus musculus with 6 samples.

Results

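The IL-6 cytokine family is described here in mouse microglia through 9 genes, 5 for ligands (Il6, Lif, Osm, Clcf1 and Il11) and 4 for receptor chains (Il6ra, Il6st, Lifr and Osmr). The genes were taken by name, whatever their values, from a table of 55335 mouse gene identifiers. All 9 were found. Il6, Lif, Osm, Il6ra and Il6st averaged 1 FPKM or more and entered the test across genes, which makes 5 of the 9. FPKM counts fragments per kilobase of transcript, scaled to the number of mapped fragments, so levels are already per transcript length and can be set side by side between genes.

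The libraries came from primary microglia of C57BL/6 newborn mouse brains, shaken off mixed glial cultures on day 14 and labelled WT in genotype in every library. They were co-cultured for 24 h with neutrophils sorted magnetically from spinal cord lesions 3 days post injury (dpi), and then recovered by flow cytometry as Ly6G- cells. The neutrophils came from Cd177 WT mice in 3 libraries and from Cd177 KO (Cd177-/-) mice in the other 3, and both groups of donors had received the same contusion injury. The labels do not say whether libraries of a group are separate cultures, so p-values measure only the spread between these libraries, which may be technical. Below, WT and KO refer to the neutrophils, never to the microglia.

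IL-6 family cytokines share the signal-transducing chain gp130, encoded by Il6st. IL-6 and IL-11 first bind their own alpha chains, whereas LIF and oncostatin M pair gp130 with LIFR or OSMR, and the paired chains activate JAK kinases and STAT3. STAT3 in turn raises SOCS3, which binds gp130 and shuts the signal off. In the injured nervous system, microglia are a known source of IL-6 and oncostatin M, while LIFR and OSMR are best known on astrocytes and other non-myeloid cells.

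Microglia facing KO neutrophils had far less ligand mRNA than those facing WT neutrophils, while no receptor chain was called lower. Il6 went from 18.0 ± 0.772 to 0.114 ± 0.0654 FPKM (SD, n = 3 per group), Lif from 1.77 ± 0.285 to 0.327 ± 0.0998 and Osm from 38.7 ± 2.00 to 15.2 ± 0.766. Il6ra, which encodes the IL-6 binding chain, went the other way, from 4.03 ± 0.146 to 9.31 ± 0.202 FPKM. Il6st stood at 11.3 ± 0.412 and 12.5 ± 0.457 FPKM. Clcf1 and Il11 lay under the detection floor, and Lifr and Osmr were listed at 0 in all 6 libraries.

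With limma on log2(FPKM + 1) and an adjusted p under 0.05, 3 of the 5 tested genes were called lower and 2 higher. Across all 11395 genes tested, 43.3% were called, 18.8% as lower and 24.5% as higher. Under the threshold that the study used (over 2-fold and an unadjusted p under 0.05), with the fold read from the fitted log2(FPKM + 1) difference, the 3 ligands were lower and Il6ra was higher, whereas 2.57% of all genes passed, 2.02% as lower and 0.553% as higher. The WT and KO libraries did not overlap for any of the 5, against 55.8% of all genes tested. These counts include Il6 and Lif, which had a KO mean under 1 FPKM and entered the test only through the WT libraries. The filter set their direction, so their lower calls and their lack of overlap are no support. Of the rest, Osm was called lower and Il6ra and Il6st higher. The exact two-sided permutation test over libraries gave p = 0.1 for each of the 5, the smallest value that 3 libraries against 3 can give. In bulk RNA, fewer cells carrying a transcript and less of it per cell cannot be told apart.

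**Figure D1:**
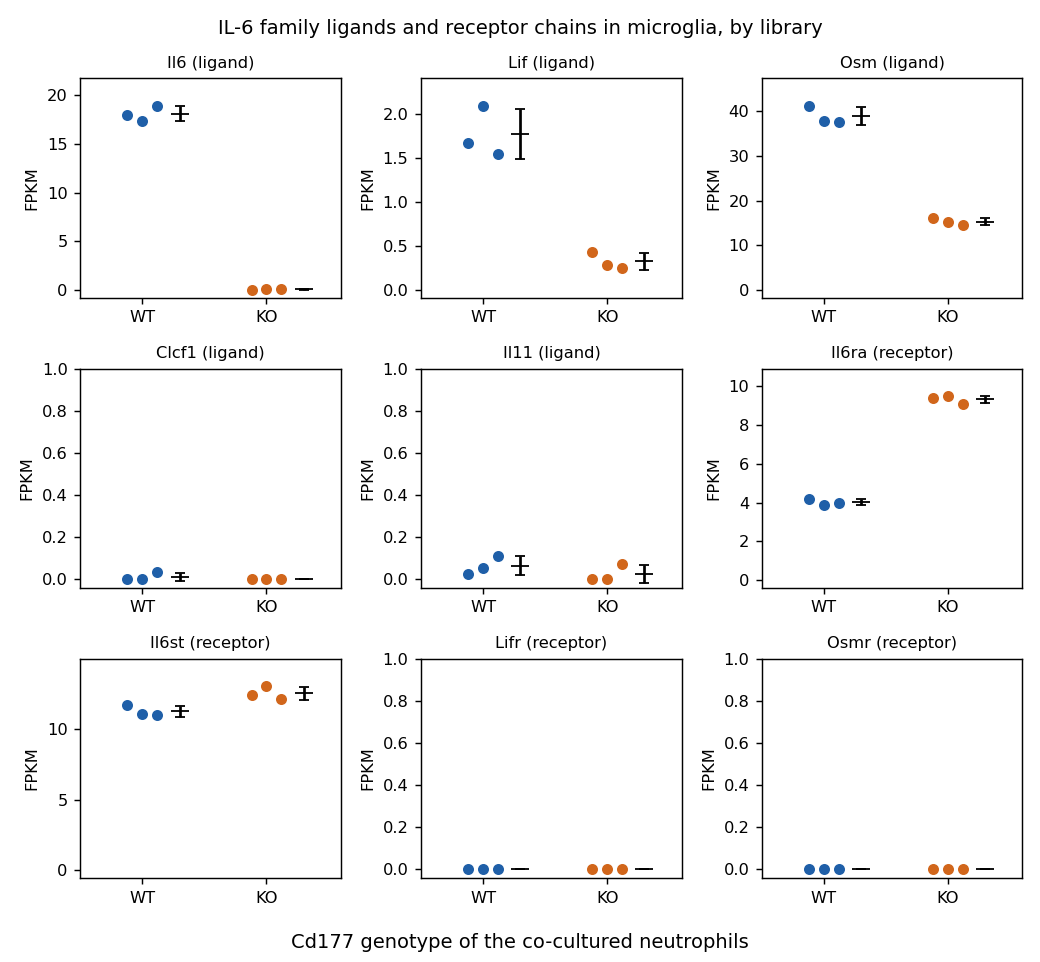
Levels of the 9 genes in FPKM (y axes, linear, a separate scale for each gene) with WT and KO neutrophils (x axes). Points are the 3 libraries of a group, and the bar beside them is the mean ± SD. Il6, Lif and Osm sit lower and Il6ra higher in all 3 KO libraries, while Clcf1, Il11, Lifr and Osmr lie at or close to 0 in both groups.

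The sequence upstream of the start site is shown for Il6, the ligand with the largest fold between groups, for Lif, and for the 2 receptor chains that were tested. The windows hold the 250 bases before the annotated start (RefSeq, GRCm38.p6), written 5′ to 3′ on the strand of the gene. Capitals mark matches to 4 short patterns searched on both strands: kB (GGANTTTCC, bound by NF-κB), C/EBP (TTGCNNAA), AP-1 (TGANTCA) and STAT (TTCNNNGAA). These are the windows of Il6 (chr5:30012864-30013113, plus strand), Lif (chr11:4257318-4257567, plus strand), Il6ra (chr3:89913197-89913446, minus strand) and Il6st (chr13:112463820-112464069, plus strand).
Il6: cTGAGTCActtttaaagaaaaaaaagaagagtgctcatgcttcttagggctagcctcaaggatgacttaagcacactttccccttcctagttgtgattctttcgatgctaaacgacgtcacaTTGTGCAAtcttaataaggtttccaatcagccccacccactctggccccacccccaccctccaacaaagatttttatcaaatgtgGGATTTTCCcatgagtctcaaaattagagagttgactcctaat
Lif: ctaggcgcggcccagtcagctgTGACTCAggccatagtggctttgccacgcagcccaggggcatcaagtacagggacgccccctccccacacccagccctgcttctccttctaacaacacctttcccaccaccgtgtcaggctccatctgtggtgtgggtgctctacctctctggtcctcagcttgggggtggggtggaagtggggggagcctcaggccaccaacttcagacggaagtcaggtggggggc
Il6ra: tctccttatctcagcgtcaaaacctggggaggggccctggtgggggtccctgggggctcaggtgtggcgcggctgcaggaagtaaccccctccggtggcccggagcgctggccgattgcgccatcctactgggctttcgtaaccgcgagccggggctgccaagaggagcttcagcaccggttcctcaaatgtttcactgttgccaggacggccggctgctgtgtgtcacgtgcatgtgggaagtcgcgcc
Il6st: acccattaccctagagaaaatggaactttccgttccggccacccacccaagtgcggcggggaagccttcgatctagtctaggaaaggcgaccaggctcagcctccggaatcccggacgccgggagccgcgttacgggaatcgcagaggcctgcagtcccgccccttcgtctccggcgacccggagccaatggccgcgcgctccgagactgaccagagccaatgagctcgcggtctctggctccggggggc

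The Il6 window held an AP-1 match from 249 to 243 bases before the start, a C/EBP match from 128 to 121 and a kB match from 43 to 35. Lif had an AP-1 match from 228 to 222 bases before its start. Il11, a ligand with no detectable difference, also had an AP-1 match, from 98 to 92 bases before a start. Neither receptor window had a match to any pattern, and no STAT match was found in the 4 windows. Over 32851 windows of the same length, which did not cover every chromosome, 1.07% held the kB pattern, 9.56% C/EBP, 6.75% AP-1 and 7.02% STAT. The windows also differed in composition, with a GC content of 42.8% for Il6, 63.6% for Lif, 65.2% for Il6ra and 66.0% for Il6st against a median of 52.4%. The Il6 window contained 3 CG pairs and the Il6st window 26. Windows were found for 7 of the 9 genes, and not for Osm and Clcf1. A match is a run of letters and does not show that a factor binds there.

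Il6 encodes interleukin-6, the founding member of the family and an acute-phase cytokine (ENSMUSG00000025746, GRCm38 chromosome 5, 30013114 to 30019981, plus strand). Its level was 18.0, 17.3 and 18.8 FPKM in the WT libraries and 0.0423, 0.171 and 0.128 FPKM in the KO libraries. All 3 KO values were under 0.296 FPKM, the highest level that 3 fragments would give for the shortest coding transcript, a floor that covers counting error only. Against that floor the level was at least 60.9-fold lower with KO neutrophils. The fitted difference (KO minus WT) was -4.10 on the log2(FPKM + 1) scale (SE 0.06, 95% interval -4.25 to -3.94, limma adjusted p = 1.94e-07), and it ranked 9 by size among all falls. With a pseudocount of 0.1 it was -6.46, so the fitted value of a gene this low in KO libraries is no measure of fold. In WT libraries 75.7% of the genes tested had a lower mean than Il6, and in KO libraries 0.0790% did. The KO share follows from the filter, because Il6 was among the genes tested only through its WT libraries.

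Osm encodes oncostatin M, a ligand released by activated myeloid cells (ENSMUSG00000058755, chromosome 11, 4236420 to 4241026, plus strand). It had 41.0, 37.7 and 37.5 FPKM in WT libraries, and 16.0, 15.2 and 14.5 FPKM remained in KO libraries. The groups were far apart, yet the KO libraries still held a sizeable level, above that of 70.6% of the genes tested. The mean was 2.54-fold higher in WT, with a fitted difference of -1.29 (SE 0.05, 95% interval -1.42 to -1.17, limma adjusted p = 7.57e-06). This fall ranked 151 by size.

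Lif encodes leukemia inhibitory factor (ENSMUSG00000034394, chromosome 11, 4257557 to 4272514, plus strand). It was a low transcript, with 1.68, 2.09 and 1.55 FPKM in WT libraries and 0.440, 0.292 and 0.249 FPKM in KO libraries. The 3 KO values exceeded the 3-fragment floor of 0.0507 FPKM, so a small amount was still detected. The WT mean was 5.42-fold the KO mean, and the fitted difference was -1.06 (SE 0.10, 95% interval -1.31 to -0.81, limma adjusted p = 0.000412). Its mean over all libraries was 1.05 FPKM, just inside the filter on low values, and a fitted difference with a pseudocount of 1 understates the change of so low a gene (-2.15 with a pseudocount of 0.1). On the log2(FPKM + 1) scale Lif missed the threshold of the study without WT library 2 (-0.98).

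Il11 and Clcf1 encode interleukin-11 and cardiotrophin-like cytokine factor 1, the latter a ligand of the CNTF receptor. Il11 (ENSMUSG00000004371, chromosome 7, 4772373 to 4782859, minus strand) had 0.0258, 0.0554 and 0.113 FPKM in WT and 0, 0 and 0.0750 FPKM in KO libraries. Clcf1 (ENSMUSG00000040663, chromosome 19, 4214238 to 4223490, plus strand) was listed at 0 in 5 libraries and at 0.0328 FPKM in WT library 3. Both stayed under their floors of 0.195 and 0.507 FPKM. The groups overlapped, and no difference was detectable at this depth (exact two-sided permutation p = 0.3 for Il11 and 1 for Clcf1). The Clcf1 exons overlap those of AC109138.7 on the same strand, so reads there could be assigned to either gene.

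Il6ra encodes the alpha chain that gives a cell its own IL-6 response (ENSMUSG00000027947, chromosome 3, 89864059 to 89913196, minus strand). The WT libraries had 4.19, 3.90 and 4.00 FPKM, and the KO libraries 9.36, 9.48 and 9.08 FPKM. Every KO library was at more than 9 FPKM and every WT library under 4.2. The mean was 2.31-fold higher in KO, with a fitted difference of 1.03 (SE 0.04, 95% interval 0.93 to 1.14, limma adjusted p = 9.16e-06), which ranked 69 among all rises. This value sits at the 2-fold mark, and it was 0.99 once each library was rescaled to a common FPKM sum. Its exons overlap Gm42809 on the opposite strand, and whether counting used strand is not given in the sources used here.

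Il6st encodes gp130, the shared signalling chain (ENSMUSG00000021756, chromosome 13, 112464070 to 112510086, plus strand). It had 11.7, 11.0 and 11.0 FPKM in WT and 12.4, 13.03 and 12.1 FPKM in KO libraries. The groups did not overlap, but the gap between the highest WT and the lowest KO library was small. The KO mean was 1.11-fold the WT mean, and the fitted difference of 0.14 (SE 0.04, 95% interval 0.04 to 0.25) had a limma adjusted p of 0.0369. The call was lost when WT library 2 or 3 or KO library 1 or 2 was left out (adjusted p from 0.0774 to 0.105), and after rescaling to a common sum, where the difference was 0.10 and the adjusted p 0.133. FPKM sums were 314085 to 315632 in WT and 323588 to 326868 in KO libraries.

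Lifr (ENSMUSG00000054263, chromosome 15, 7090614 to 7197489, plus strand) encodes the chain that LIF engages beside gp130. Osmr (ENSMUSG00000022146, chromosome 15, 6813577 to 6874969, minus strand) encodes the partner chain for oncostatin M. Both were listed at 0 in each of the 6 libraries, so no fold is given. None of 20 transcripts that nearly all cells use was listed at 0, their lowest value being 1.54 FPKM. These 20 were chosen with the table at hand, so they cannot show whether a 0 means absence or a loss in quantification. The microglia marker C1qa was also listed at 0 in each of the 6 libraries. Osm, the ligand with the highest level in both groups, was thus measured in libraries that listed its receptor chain at 0.

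The order of the levels was not the same in the 2 groups. In WT libraries it ran Osm, Il6, Il6st, Il6ra, Lif, and the ranges of neighbours in that order did not overlap. In KO libraries it ran Osm, Il6st, Il6ra, and then Lif. Il6, in the second place with WT neutrophils, was under its floor in KO libraries and has no place there, and its floor of 0.296 FPKM lay above the lowest Lif value of 0.249. In WT libraries the range of Il11 overlapped that of Clcf1, so these were not ordered either.

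The 5 ligand transcripts together summed to 60.7, 57.2 and 58.0 FPKM in WT libraries and to 16.5, 15.7 and 14.9 FPKM in KO libraries. Osm made up 66.1% ± 1.498 of this sum in WT and 97.0% ± 0.0571 in KO libraries (SD, n = 3). The share of Il6 was 30.8% ± 1.51 in WT and 0.735% ± 0.430 in KO libraries. Both shares were fully separated between groups (exact two-sided permutation p = 0.1, the smallest possible), whereas the share of Lif, 3.03% ± 0.548 and 2.07% ± 0.529, was not (exact p = 0.2). The shares are parts of the same sum, so they are not separate results. The KO share of Il6 rests on values under its floor. Osm itself fell from 38.7 to 15.2 FPKM while its share rose. The Osm to Il6 ratio in WT libraries lay between 1.99 and 2.28.

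The ratio of Il6ra to Il6st is free of any scaling between libraries. It was 0.357, 0.353 and 0.364 in WT libraries, and in KO libraries it was 0.753, 0.727 and 0.748. Il6ra mRNA thus came nearer to that of its signalling partner in KO libraries, and the groups did not overlap (0.358 ± 0.00569 against 0.743 ± 0.0138, SD, n = 3, exact two-sided permutation p = 0.1).

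**Figure D2:**
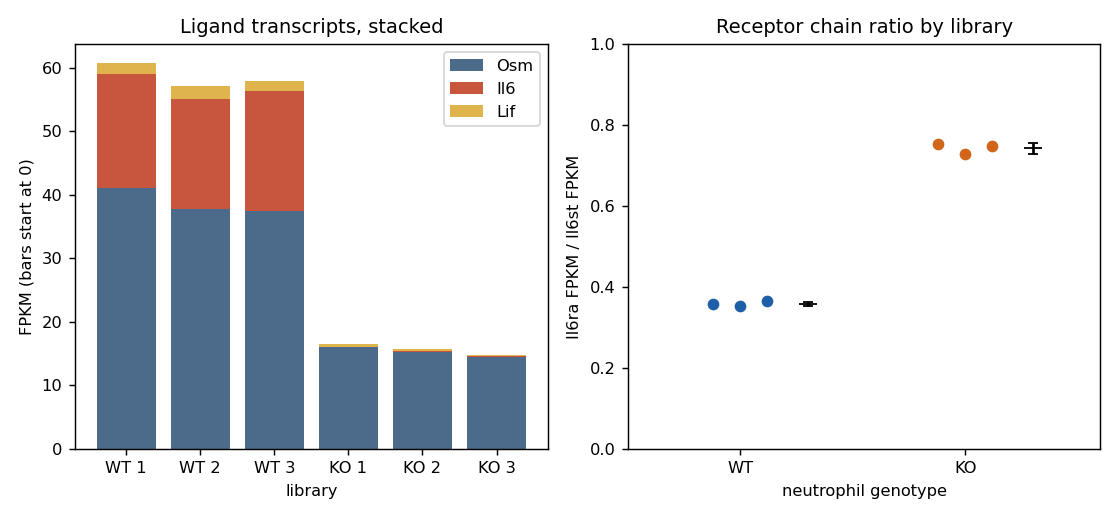
Left, FPKM of Osm, Il6 and Lif stacked for each library (x axis), with bars starting at 0. Right, the Il6ra to Il6st ratio by neutrophil genotype, with 3 libraries per group as points and mean ± SD as bars. The ligand stack is about 57 to 61 FPKM in WT and 15 to 16 in KO libraries, where nearly all of it is Osm, and the receptor ratio is higher in every KO library.

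Set among all genes tested, the 3 tested ligands lay below 0 and the 2 tested receptor chains above it. Of these receptor chains, Il6st lost its call under 7 of 14 alternative settings. The median fitted difference over the 11395 genes was 0.02. Il6 stood among the strongest falls, Osm, Lif and Il6ra lay past 1 on this log2(FPKM + 1) scale, downward for both ligands and upward for Il6ra, and Il6st lay inside the bulk of genes.

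**Figure D3:**
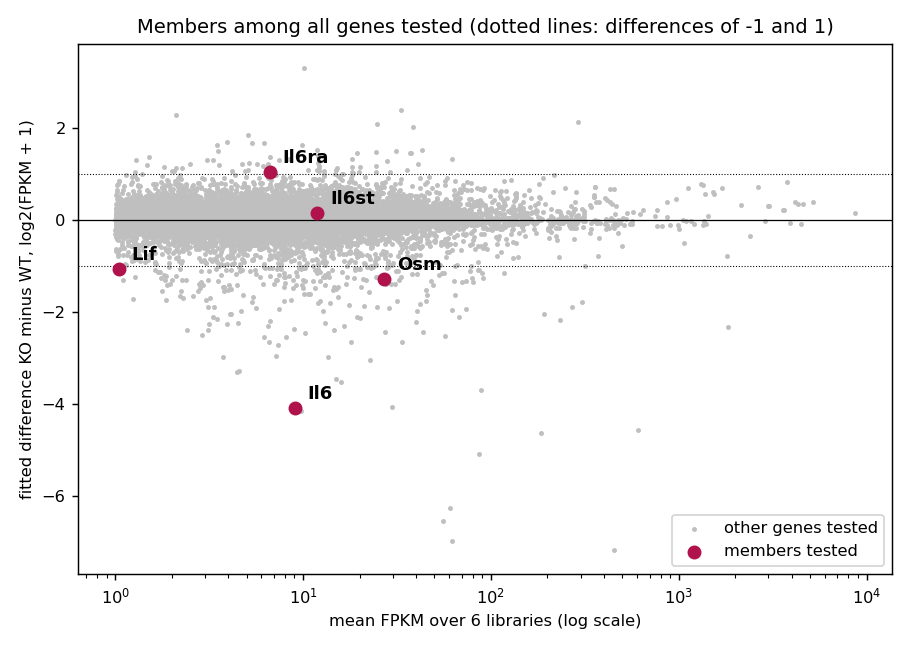
Fitted difference KO minus WT on the log2(FPKM + 1) scale (y axis) against the mean FPKM over 6 libraries on a log axis (x axis) for the 11395 genes tested. Dotted lines mark a difference of 1 in either direction, and the 5 labelled points are Il6 at -4.10, Osm at -1.29, Lif at -1.06, Il6st at 0.14 and Il6ra at 1.03.

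The profiles closest to Il6 over the 6 libraries were those of Il1a (interleukin-1 alpha), Nos2 (inducible nitric oxide synthase) and Tnf. Their Euclidean distances from Il6, on log2(FPKM + 1) values centred for each gene, were 0.201, 0.221 and 0.5002, against a median of 5.05 over all genes. Closest to Il6ra were Itgax (the integrin CD11c), Gpr157 and Nrp1 (neuropilin-1), at 0.0694, 0.0753 and 0.0797, against a median of 1.27. With 6 libraries in 2 groups, such a distance mostly records a like difference between WT and KO.

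Osm and Lif are neighbours on chromosome 11, on the same strand, 16530 bases apart with 0 protein-coding genes between them. Within 200000 bases on either side lie 10 other protein-coding genes, of which 6 were tested. None of these 6 was called lower and 2 were called higher, Mtfp1 at 0.53 and Sec14l2 at 0.35 (log2), against 18.8% lower and 24.5% higher over all genes tested, and so few genes say nothing particular about the locus. Osmr and Lifr lie 215644 bases apart on chromosome 15. Of the tested genes around that pair, Fyb, an adaptor protein of blood cells, fell from 59.1 to 8.50 FPKM (-2.66), and Rictor was not called (-0.02).

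Of 12 other genes of the family, 7 were listed at 0 in every library (among them Cntfr, Il11ra2 and Il31ra) and only 2 were tested. Ebi3, a subunit shared by IL-27 and IL-35, fell from 33.7 ± 1.31 to 8.53 ± 0.742 FPKM, with a fitted difference of -1.87 (limma adjusted p = 4.68e-06). Its IL-27 partner Il27 stayed at or under 0.123 FPKM in all libraries. Cntf, ciliary neurotrophic factor, had 1.57 ± 0.451 and 1.34 ± 0.245 FPKM, and no difference was called. Il11ra1, which encodes the alpha chain for IL-11, was at most 0.0420 FPKM.

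Genes that carry the signal from gp130 were called in both directions. Of 25 such genes 22 were tested, with 11 called lower, 4 higher and 7 not called, and a median difference of -0.07. Of all genes tested, 18.8% were called lower and 24.5% higher. None passed 2-fold on the log2(FPKM + 1) scale, although the raw means of Jak2 and Src were 2.11-fold and 2.25-fold higher in WT. Jak2, a kinase bound to gp130, fell from 10.01 ± 0.213 to 4.74 ± 0.491 FPKM (-0.94), while Jak1 fell by 0.12 on the log2 scale and Tyk2 was not called (0.05). Stat3 fell from 9.94 ± 0.273 to 7.398 ± 0.345 FPKM (-0.38, limma adjusted p = 0.000963). Gab2 (-0.79) and Src (-0.83), an adaptor and a kinase, were lower, and the adaptor Shc1 (0.54) and the kinase Akt1 (0.37) were higher. The adaptor Grb2 was not called, and its WT library 2 stood apart at 17.5 FPKM against 33.2 to 37.2 in the others.

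Among 10 genes that limit the signal or shed the receptor, 6 were tested, 3 of them lower, 1 higher and 2 not called, with a median of -0.13 (all genes tested, 18.8% lower and 24.5% higher). Socs3, the brake that acts on gp130, had 14.1, 14.2 and 12.9 FPKM in WT and 3.41, 3.31 and 3.60 FPKM in KO libraries. Its groups were well separated, with a 3.99-fold higher mean in WT and a fitted difference of -1.73 (SE 0.05, limma adjusted p = 2.70e-06). Rhbdf2, an iRhom that carries the sheddase ADAM17 to the cell surface, fell by 0.62 on the log2 scale, and Adam17 itself by 0.28. Pias1, of the PIAS family of STAT inhibitors, was higher by 0.24. Cish, another SOCS family gene, was under the filter at 1.25 ± 0.186 and 0.189 ± 0.0408 FPKM.

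Of 30 genes linked to STAT3, 22 were tested, and 19 were called lower, 1 higher (Ccnd1, cyclin D1, 0.16) and 2 not called (Bcl2l1 and Icam1). Their median difference was -0.75, and 10 passed the threshold of the study as lower. Over all genes tested, 18.8% were called lower, 24.5% higher and 2.02% passed that threshold as lower. The list was chosen with earlier results of these data known, so its counts describe these genes and test nothing. The 19 and the 10 include Lcn2 and Myc, which averaged under 1 FPKM in KO libraries and entered the test only through the WT libraries. The filter set their direction, so their lower calls are no support. Ccl2, a monocyte chemoattractant, fell from 1169 ± 17.4 to 48.0 ± 2.28 FPKM (-4.58), and the acute-phase gene Saa3 from 30.2 ± 1.24 to 1.72 ± 0.176 FPKM (-3.52). Il1rn, the IL-1 receptor antagonist, went from 31.8 ± 0.336 to 4.23 ± 0.380 FPKM (-2.65) and haptoglobin (Hp) from 33.5 ± 3.25 to 6.86 ± 0.735 FPKM (-2.13). Lcn2, lipocalin-2, had 110 ± 2.30 FPKM in WT and 0.200 ± 0.137 FPKM in KO libraries. Many of these genes, Ccl2 and Lcn2 included, are also known targets of NF-κB, and the list does not tell STAT3 from other inputs.

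Genes known to act on Il6 itself were described as a separate group of 12, of which 11 were tested, 7 lower, 0 higher and 4 not called, with a median of -0.64 (all genes tested, 18.8% lower and 24.5% higher). Nfkbiz encodes IκBζ, a nuclear cofactor needed for Il6 transcription in macrophages, and it fell from 41.2 ± 0.219 to 4.12 ± 0.316 FPKM (-3.04, limma adjusted p = 2.46e-07). Zc3h12a (regnase-1) and Zfp36 (tristetraprolin), which destabilise Il6 mRNA, fell as well, from 18.0 ± 0.721 to 2.47 ± 0.504 FPKM (-2.46) and from 12.9 ± 0.283 to 4.67 ± 0.249 FPKM (-1.30). Nfkb1 (-1.24), Cebpb (-0.70) and Cebpd (-0.64), which encode factors for the kB and C/EBP patterns, were lower, and Rela was lower by 0.13. Arid5a, which stabilises Il6 mRNA, was not called (-0.09). Activators and repressors of Il6 were thus among the genes that fell. This list too was chosen with earlier results of these data known, so its counts test nothing. The lists overlap in Stat3, Socs3, Cebpb and Cebpd.

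**Figure D4:**
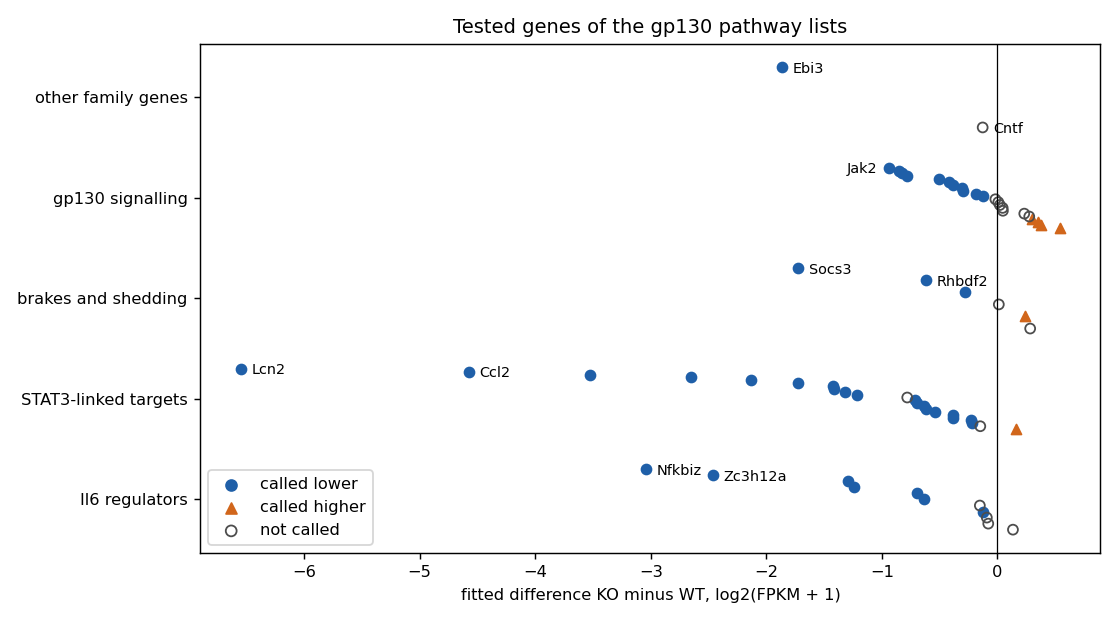
Fitted difference KO minus WT on the log2(FPKM + 1) scale (x axis) for the tested genes of the 5 lists (y axis, 1 row per list, genes spread by rank). Filled circles were called lower, triangles higher and open circles not called. STAT3-linked targets and Il6 regulators reach far to the left, with Lcn2 at -6.54 and Nfkbiz at -3.04, whereas gp130 signalling genes stay between -0.94 and 0.54.

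Cell type markers were read in the same libraries. Of 19 microglia markers 11 were tested, and their summed level was 830 to 866 FPKM in WT and 977 to 1019 FPKM in KO libraries, but Sall1, Fcrls and C1qa were listed at 0 and P2ry12 and Tmem119 stayed under 1 FPKM, so the label rests on broader myeloid markers such as Cd68 and Csf1r. Of 18 neutrophil markers, 7 were at 0 in every library, among them S100a9, Ly6g, Mpo and Elane. The neutrophil sum was 118 to 122 FPKM in WT and 1.80 to 2.74 FPKM in KO libraries, nearly all of it from Lcn2 and Mmp9, which stimulated macrophages also make. The 16 others summed to 2.04 to 2.34 FPKM in WT and 0.849 to 1.38 FPKM in KO libraries, and their part in the differences of Il6, Lif and Osm was not tested. Cd177 itself was at 0.113 to 0.477 FPKM in WT and 0.0217 to 0.109 FPKM in KO libraries. It was under the filter and too low in sorted microglia to check the neutrophil genotype.

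Of 9 astrocyte markers 5 were at 0, and their sum was 12.3 to 13.3 FPKM in WT and 15.7 to 17.1 FPKM in KO libraries, mostly from Aldoc. The 9 oligodendrocyte markers summed to 2.98 to 3.39 and 4.24 to 4.66 FPKM, with 3 at 0. The 11 fibroblast and endothelial markers reached at most 0.347 FPKM in sum, with 6 at 0. For 10 lymphocyte and dendritic markers the sums were 4.72 to 5.06 FPKM in WT and 9.74 to 10.3 FPKM in KO libraries, with 5 at 0 and Itgax the only 1 tested. Itgax was also the gene closest in profile to Il6ra, and whether the CD11c rise and the Il6ra rise share cells was not tested.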

How the data were processed

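RNA-seq of sorted microglia was read from 1 table with 6 columns, grouped by sample titles. The authors deposited FPKM values per gene and library, without pooling. Per the labels, their processing notes name fastp 0.17.1, HISAT2 2.1.0, DESeq2 1.18.1 and R 3.4.3. The quantifier, genome build and annotation are not given in the sources used here, and labels and methods name different library kits and sequencers. Gene names and positions came from GENCODE M21 (GRCm38), where 55154 of 55335 identifiers were found.

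Differences were fitted with limma 3.58.1 (R 4.3.3, lmFit and eBayes with a trend) on log2(FPKM + 1) for the 11395 genes that averaged 1 FPKM or more, without covariates, and Benjamini-Hochberg adjustment ran over all of them. The step was tested on simulated data. Steps between low values point to 15600000 to 19200000 fragments per library, but only 26.4% to 27.4% of low values were whole fragments within 0.05 (10% by chance), so no count test was run. Floors are 3 fragments at that depth.

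All 9 members were named. Of the other lists, up to 6 called genes with the largest fitted difference could be named, and any gene for its role, and likeness covered the 3 nearest genes for Il6 and for the member with the largest rise. The members, lists and rules were chosen with earlier results of these data known. Alternatives were a pseudocount of 0.1, no filter, a mean of at least 5 FPKM, rescaling to a common sum, median centring, quantile normalization, no variance trend, the replicate number as a block, and leaving out each library.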

Additional observations from a re-analysis of the deposited data

How the results depend on the processing

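Il6, Osm and Il6ra kept their direction and call under all 14 alternatives, with fitted differences of -6.46 to -3.98, -1.34 to -1.25 and 0.99 to 1.19. Lif did so under 13 (-2.15 to -0.97) and was not tested with a mean of at least 5 FPKM. It missed the threshold of the study, leaving 2 genes in place of 3 past it as lower, under quantile normalization (-0.97) and without WT library 2 (-0.98). Of 265 comparisons with an alternative, 248 stayed on the same side or within 1.5 times, and 0 turned direction. The number of the 9 genes called higher was 1 in place of 2 without a filter, after rescaling and with the replicate block, and 1 to 2 when each library was left out in turn, because Il6st lost its call (adjusted p 0.0632 without a filter). After rescaling, 0 of the 9 passed the threshold of the study as higher and 0 STAT3-linked genes were called higher. With a mean of at least 5 FPKM, fewer genes of gp130 signalling were tested and 2 were called higher in place of 4. Replicate numbers of the 2 groups did not pair the libraries, since their deviations correlated at -0.0751, -0.0524 and -0.00518. With the block, 4212 genes were called in place of 4930, and Il6st had an adjusted p of 0.0726. Genes that averaged under 1 FPKM were not tested in the main fit. Il11, Clcf1, Lifr and Osmr, under their floors in both groups, cannot be compared at this depth, and 3 libraries per group limit every interval.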
